A study of Mus musculus with 4 samples.

Results

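Genes of cholesterol and fatty acid synthesis were followed in sorted mouse thymocytes: 31 genes, chosen by name as the sterol regulatory element-binding proteins (SREBPs), their regulators and the enzymes of both pathways, out of 35275 genes in the deposited count table. RNA sequencing had been done on thymocytes of C57BL/6 mice aged 6 to 8 weeks, with 1 library for each of 4 groups. These were KO group 2, WT group 2, KO group 3 and WT group 3. Group 2 cells were sorted as TCRβint CD69hi and group 3 cells as TCRβhi CD69hi, the later of these stages of positive selection. KO stands for the genotype label Uba3-/-, which the series calls Uba3ΔT, and WT for the label wild type, Uba3F/F. Uba3 carries the active site of the NEDD8 activating enzyme; NEDD8, a relative of ubiquitin, is joined to cullins and turns on their ligase activity. The labels do not name the Cre driver, and they do not say whether a library came from 1 mouse or from several.

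All values come from single libraries. Totals were 8964120 counts in the library labelled KO and 10299863 in the WT library of group 2, and 9689339 in the library labelled KO and 8043077 in the WT library of group 3. Uba3 itself had 647 counts in the library labelled KO and 453 in the WT library of group 2, and 856 in the library labelled KO and 356 in the WT library of group 3. It was therefore higher in the libraries labelled KO, by 1.70 times in group 2 and 2.06 times in group 3, which goes against the label. Counts are summed over the whole gene and do not show which exon the allele removes. The cell type field of the labels names both WT libraries as group 2 and both libraries labelled KO as group 3, against their titles, which were followed here. T lineage markers summed to 16800 CPM (counts scaled to a common library size by TMM) in the library labelled KO and 15500 CPM in the WT library of group 2, and to 15600 CPM in the library labelled KO and 16500 CPM in the WT library of group 3. Thymic epithelium genes, 9 in all, summed to 36.2 CPM in the library labelled KO and 44.4 CPM in the WT library of group 2, and to 42.8 CPM in the library labelled KO and 38.1 CPM in the WT library of group 3; their defining gene Foxn1 had 0 counts in both libraries labelled KO and 6 and 1 counts in the WT libraries of groups 2 and 3.

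Cells make cholesterol from acetyl-CoA through mevalonate, squalene and lanosterol, and fatty acids from acetyl-CoA through malonyl-CoA. When membrane sterol is low, Scap carries SREBPs from the endoplasmic reticulum to the Golgi, where they are cut into transcription factors that switch on most genes of both pathways, and the Insig proteins hold them back when sterol is plentiful. Thymocytes draw on these pathways for new membrane when they divide, and cholesterol and its derivatives also affect T cell receptor clustering.

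Of the 31 genes, 30 reached 2 CPM in at least 1 library and were tested. Scd1, the stearoyl-CoA desaturase that is abundant in liver and fat, did not. Scd1 had 7 counts in the library labelled KO and 10 in the WT library of group 2, and 11 in the library labelled KO and 1 in the WT library of group 3. Levels per gene length (RPKM) could be set side by side for the 7 genes whose deposited length reached at least 0.9 of their longest annotated transcript. Averaged over the 4 libraries, Scd2 was at 38.0 RPKM, Srebf2 at 26.7, Hmgcs1 at 11.3, Insig1 at 9.81, Mvd at 8.14, Elovl6 at 2.30 and Scd1 at 0.156. Scd2 was thus far above Scd1; reads of Scd1 and Scd2, close copies, may have been split by the counting.

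The 31 genes together gave 1420 CPM in the library labelled KO and 1470 CPM in the WT library of group 2, and 1450 CPM in the library labelled KO and 1490 CPM in the WT library of group 3. Against this nearly level sum, single genes differed in both directions. Over both sorted groups, 2 of the 30 genes rose with the KO label in edgeR's quasi-likelihood test (adjusted p under 0.05), Elovl6 and Insig1, and 0 fell. Among all 12490 genes tested, 2.94% rose and 1.81% fell. At an unadjusted p under 0.05, 6 of the 30 passed, 3 of them higher (Elovl6, Insig1 and Scd2) and 3 lower (Srebf2, Acat2 and Fdft1), against 13.3% of all genes in either direction. DESeq2 called 0 in either direction, and limma-voom called Elovl6 as higher and 0 as lower. With 1 library per combination of genotype and sorted group, the fit has 1 residual degree of freedom, and edgeR took each gene's spread wholly from the trend over genes of like level. A gene's own disagreement between the sorted groups therefore did not enter its error.

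**Figure D1:**
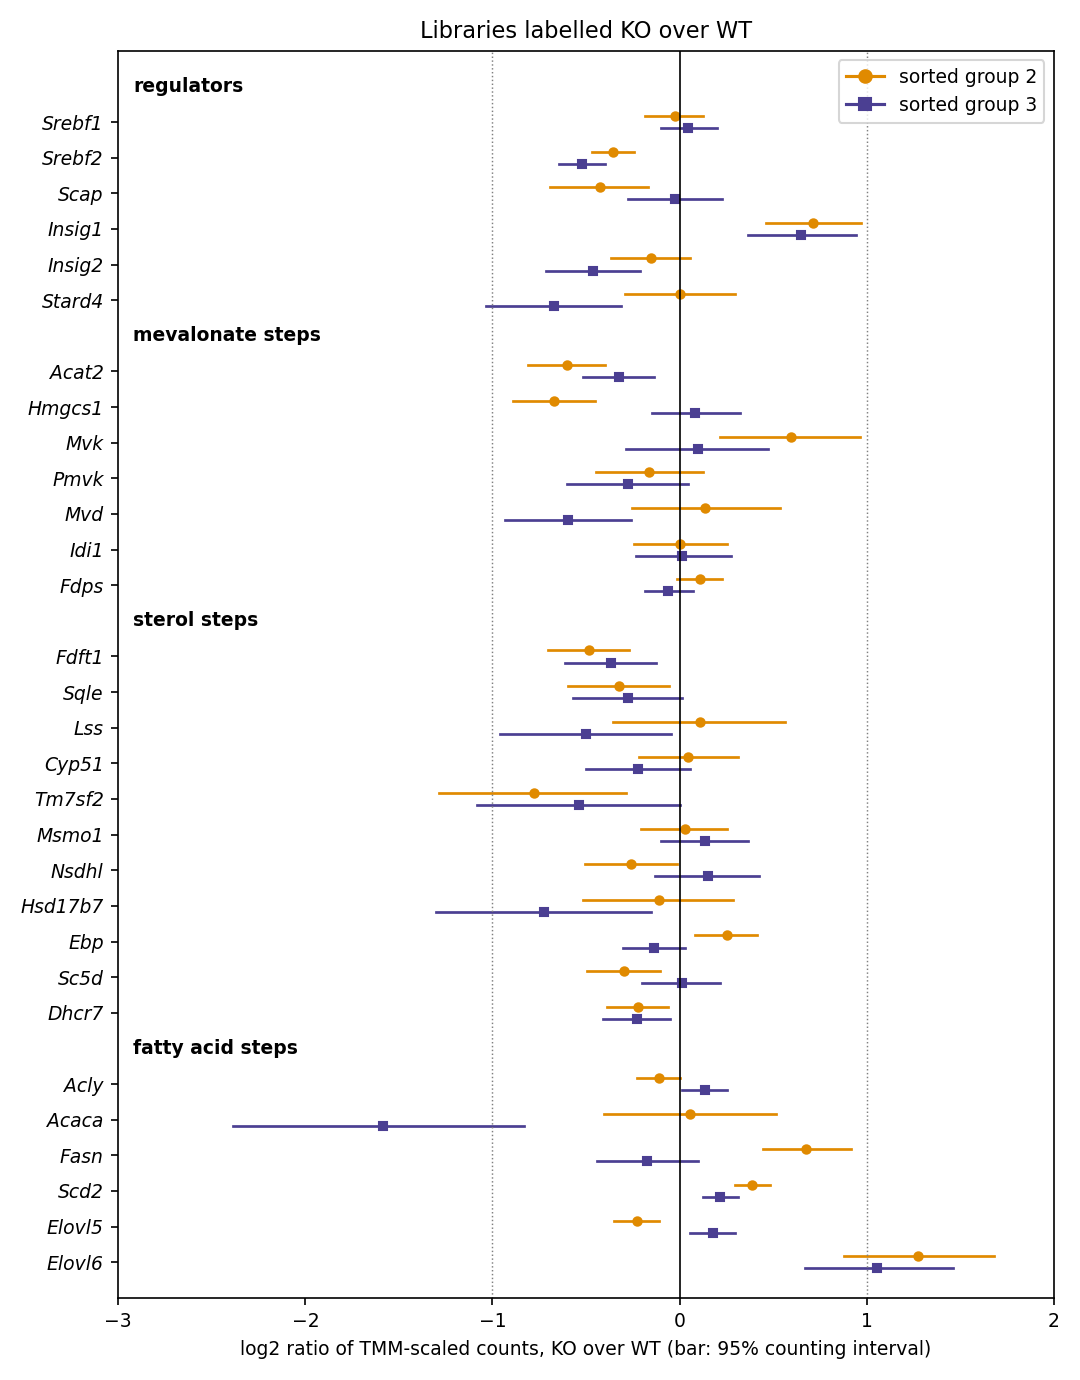
Log2 ratio of the library labelled KO over the WT library (x axis, TMM-scaled counts) for the 30 tested genes (y axis, by role), in group 2 (circles) and group 3 (squares), with 95% counting intervals. Elovl6 lies near a 2-fold ratio in both sorted groups, Insig1 is above 1 in both, Srebf2, Acat2, Fdft1 and Dhcr7 are below 1 in both, and Acaca is low in group 3.

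Promoters of 3 genes are shown: Elovl6 and Insig1 because they are the genes that rose, and Hmgcs1, a textbook SREBP target, because its promoter is the one among those matched that holds the SRE letters. Each is the 250 bases before the transcription start, plus strand, from RefSeq on GRCm38.p6, at chr3:129532136-129532385 for Elovl6, chr5:28071162-28071411 for Insig1 and chr13:119690101-119690350 for Hmgcs1. Capitals mark a sterol regulatory element (SRE, TCACNCCAC), an E-box (CACGTG) or CCAAT, on either strand.
Elovl6: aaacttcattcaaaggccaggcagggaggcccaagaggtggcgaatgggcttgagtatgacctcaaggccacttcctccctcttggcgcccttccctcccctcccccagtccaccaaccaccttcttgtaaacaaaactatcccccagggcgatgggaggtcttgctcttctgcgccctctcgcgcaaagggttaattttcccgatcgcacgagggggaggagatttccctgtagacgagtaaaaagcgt
Insig1: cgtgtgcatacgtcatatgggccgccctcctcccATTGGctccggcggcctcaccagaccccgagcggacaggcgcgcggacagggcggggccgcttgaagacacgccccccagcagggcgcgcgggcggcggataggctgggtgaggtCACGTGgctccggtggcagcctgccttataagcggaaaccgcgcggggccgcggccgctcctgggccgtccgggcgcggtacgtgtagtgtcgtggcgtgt
Hmgcs1: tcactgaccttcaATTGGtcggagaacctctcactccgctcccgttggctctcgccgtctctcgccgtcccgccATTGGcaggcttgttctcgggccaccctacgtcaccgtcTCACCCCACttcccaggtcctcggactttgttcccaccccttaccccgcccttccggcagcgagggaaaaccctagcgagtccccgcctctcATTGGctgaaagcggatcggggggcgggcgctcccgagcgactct
The Hmgcs1 window held an SRE beginning 137 bases before the start and CCAAT on the minus strand at 3 places. The Insig1 window held an E-box beginning 101 bases before the start and CCAAT on the minus strand 216 bases before it. None of the 3 motifs, nor the GC box GGGCGG, was found in the Elovl6 window. RefSeq promoters were matched for 25 of the 31 genes, 33 promoters in all. The SRE letters were in 1 of these 33 and in 1.05% of all 32851 promoters, the E-box in 6 of 33 (6.02% of all), CCAAT in 21 of 33 (33.8% of all) and the GC box in 23 of 33 (32.7% of all). No marked match overlaps another in these 3 windows, and a match of letters is not a bound site.

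Elovl6, which lengthens palmitate-type chains into stearate-type chains, had the largest fitted change of the 30 genes. It lies on chromosome 3, from 129532355 to 129638495 on the plus strand (mm10; ENSMUSG00000041220). Elovl6 stood at 18.5 CPM (163 counts) in the library labelled KO and 7.62 CPM (80 counts) in the WT library of group 2. In group 3 it stood at 19.6 CPM (187 counts) in the library labelled KO and 9.44 CPM (77 counts) in the WT library. Both libraries labelled KO were above both WT libraries, as in 18.8% of all genes tested. Elovl6 was 2.42 times as high in the library labelled KO of group 2 (95% counting interval 1.84 to 3.21) and 2.08 times as high in that of group 3 (1.59 to 2.75). Its fitted log2 fold change was 1.17 ± 0.29 (SE, edgeR, adjusted p = 0.00342). The call held in 4 of 11 alternatives. It was lost in DESeq2's Wald test (adjusted p = 0.227), and in edgeR without the sorted-group term (adjusted p = 0.139). With any 1 of the 4 libraries left out, which also required dropping that term, it did not pass (edgeR, adjusted p 0.176 to 0.674), with log2 fold changes of 1.01 to 1.32 over the 11 alternatives.

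Among the regulators, Insig1 was higher and Srebf2 lower in both libraries labelled KO. Insig1, an endoplasmic reticulum protein that retains Scap and is itself an SREBP target, lies on chromosome 5 from 28071363 to 28078662 (mm10; ENSMUSG00000045294). It had 35.2 CPM in the library labelled KO and 21.4 CPM in the WT library of group 2, and 30.2 CPM in the library labelled KO and 19.3 CPM in the WT library of group 3. Both libraries labelled KO lay above the WT libraries without overlap, as in 18.8% of all genes tested. Insig1 was 1.64 times as high in group 2 (1.38 to 1.96) and 1.57 times as high in group 3 (1.29 to 1.92), with a fitted log2 fold change of 0.69 ± 0.22 (edgeR, adjusted p = 0.0422). This call held in none of the 11 alternatives, and the nearest was edgeR with DESeq2's size factors (adjusted p = 0.0518, with a range of 0.0518 to 0.846 over all 11).

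Srebf2 encodes SREBP-2, the main driver of sterol synthesis genes. It had 121 CPM in the library labelled KO and 155 CPM in the WT library of group 2, and 104 CPM in the library labelled KO and 150 CPM in the WT library of group 3. Both libraries labelled KO lay below both WT libraries, as in 19.7% of all genes tested. The ratios were 0.782 (0.723 to 0.845) in group 2 and 0.697 (0.64 to 0.759) in group 3. The fitted log2 fold change of -0.44 ± 0.15 did not pass (edgeR, adjusted p = 0.0691), and it passed with plain library totals in place of TMM scaling (edgeR, adjusted p = 0.0344).

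Srebf1, whose products favour fatty acid genes, was close in both pairs of libraries. It had 68.6 CPM in the library labelled KO and 69.9 CPM in the WT library of group 2, and 86.3 CPM in the library labelled KO and 83.5 CPM in the WT library of group 3. The fitted log2 fold change was 0.01 ± 0.16 (edgeR, adjusted p = 0.992). Scap, the sterol-sensing escort, had 22.3 CPM in the library labelled KO and 30.0 CPM in the WT library of group 2, and 29.3 CPM in the library labelled KO and 29.8 CPM in the WT library of group 3. Insig2, the second retention protein, had 35.9 CPM in the library labelled KO and 39.9 CPM in the WT library of group 2, and 25.7 CPM in the library labelled KO and 35.4 CPM in the WT library of group 3. Stard4, a carrier of cholesterol between membranes, had 20.2 CPM in the library labelled KO and 20.1 CPM in the WT library of group 2, and 11.9 CPM in the library labelled KO and 18.9 CPM in the WT library of group 3. For Scap the counting interval excluded 1 in group 2 and for Insig2 and Stard4 in group 3, and none of the 3 passed the edgeR test (adjusted p 0.759, 0.597 and 0.721).

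**Figure D2:**
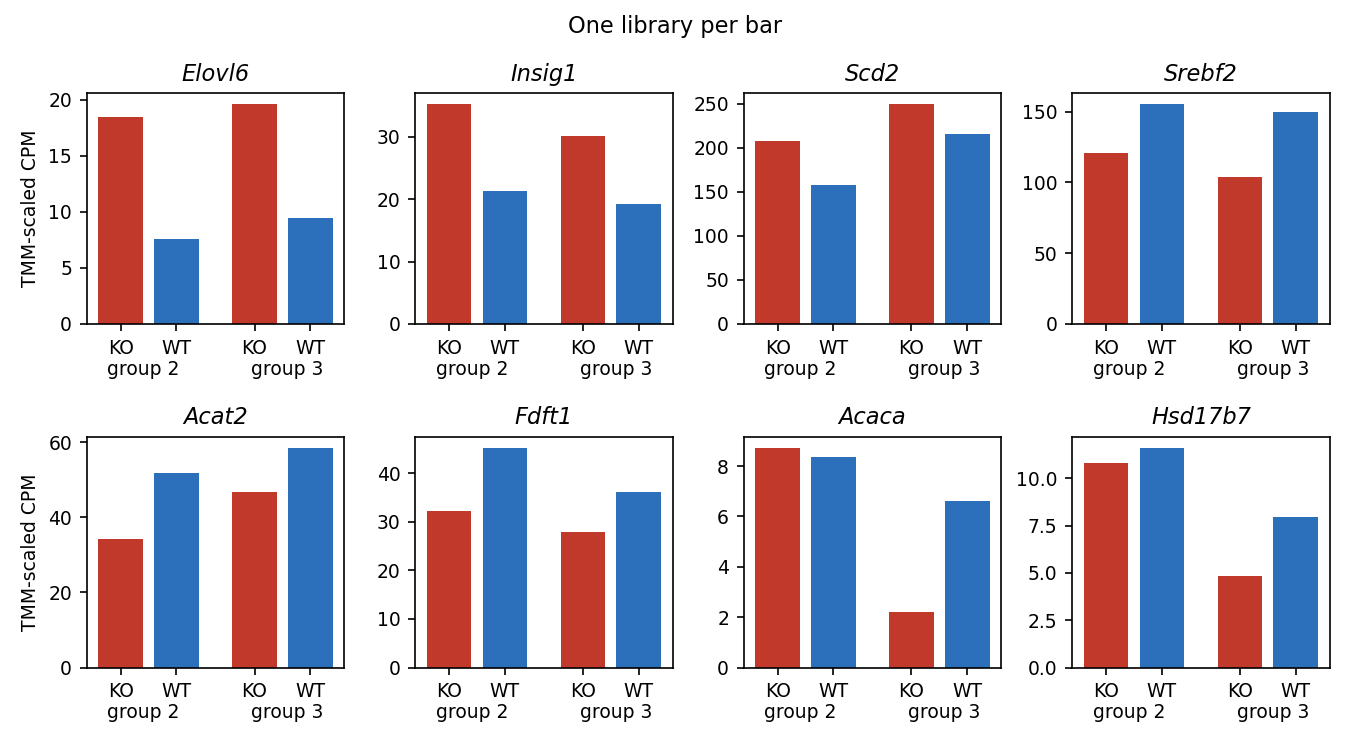
TMM-scaled CPM (y axis, from 0) of 8 genes in the 4 libraries (x axis, KO label left of WT in each sorted group), 1 library per bar. Elovl6, Insig1 and Scd2 were higher in both libraries labelled KO than in the WT library of the same group, Srebf2, Acat2 and Fdft1 were lower, and Acaca and Hsd17b7 were lowest in the library labelled KO of group 3.

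The 7 enzymes from acetyl-CoA to farnesyl diphosphate, the isoprenoid that feeds squalene, had a median fitted log2 fold change of -0.22, against 0.00 for all genes tested. None passed the edgeR test, DESeq2 or limma-voom, and Acat2 alone had an unadjusted p under 0.05. Acat2, the cytosolic thiolase that opens the pathway, had 34.2 CPM in the library labelled KO and 51.9 CPM in the WT library of group 2. In group 3 Acat2 had 46.7 CPM in the library labelled KO and 58.5 CPM in the WT library. Both libraries labelled KO lay below both WT libraries, as in 19.7% of all genes tested. The fitted log2 fold change of Acat2 was -0.46 ± 0.18 (edgeR, adjusted p = 0.162). Its copy Acat3 had at most 7 counts in a library.

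Hmgcs1, the synthase that makes HMG-CoA, had unlike ratios in the sorted groups, a difference that was not tested. It had 30.0 CPM in the library labelled KO and 47.7 CPM in the WT library of group 2, a ratio of 0.629 (0.54 to 0.731). In group 3 Hmgcs1 had 35.2 CPM in the library labelled KO and 33.1 CPM in the WT library, a ratio of 1.06 (0.902 to 1.25). The WT library of group 2 was the one that stood above the other 3. Mvd, the decarboxylase of mevalonate diphosphate, had 11.8 CPM in the library labelled KO and 10.7 CPM in the WT library of group 2, and 13.9 CPM (132 counts) in the library labelled KO and 21 CPM (171 counts) in the WT library of group 3. Its ratio was 1.10 (0.837 to 1.45) in group 2 and 0.661 (0.523 to 0.834) in group 3. Mvk, mevalonate kinase, had 15.6 CPM in the library labelled KO and 10.4 CPM in the WT library of group 2, and 13.8 CPM in the library labelled KO and 12.9 CPM in the WT library of group 3. Mvk was the sole mevalonate enzyme with both libraries labelled KO above both WT libraries, as in 18.8% of all genes tested. Idi1, the isomerase of the isoprenoid units, was nearly level, at 28.4 CPM in the library labelled KO and 28.3 CPM in the WT library of group 2, and 30.0 CPM in the library labelled KO and 29.7 CPM in the WT library of group 3. Fdps, which joins those units into farnesyl diphosphate, was close in both pairs, at 129 CPM in the library labelled KO and 119 CPM in the WT library of group 2, and 119 CPM in the library labelled KO and 124 CPM in the WT library of group 3. Pmvk, phosphomevalonate kinase, had ratios of 0.894 in group 2 and 0.825 in group 3, with counting intervals that included 1 in both.

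The 11 enzymes from squalene to cholesterol summed to 338 CPM in the library labelled KO and 373 CPM in the WT library of group 2, and to 316 CPM in the library labelled KO and 351 CPM in the WT library of group 3. Their median fitted log2 fold change was -0.20, and 9 of the 11 were below 0, against 49.6% of all genes tested. By pairs of libraries, 5 of the 11 were below 0 in both sorted groups, against 28.3% of all genes. Of the rest, 1 was above 0 in both and 5 differed in sign. None passed edgeR, DESeq2 or limma-voom, and Fdft1 alone had an unadjusted p under 0.05. Fdft1, squalene synthase, had 32.3 CPM in the library labelled KO and 45.2 CPM in the WT library of group 2, and 27.9 CPM in the library labelled KO and 36.1 CPM in the WT library of group 3. The libraries labelled KO lay below both WT libraries, as in 19.7% of all genes tested. The fitted log2 fold change of Fdft1 was -0.43 ± 0.20 (edgeR, adjusted p = 0.293). Fdft1 shares 774 exon bases with Ctsb on the opposite strand, whose counts were 3812 to 5445, and whether counting used strand is not given in the sources used here.

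Sqle, squalene epoxidase and a rate-controlling step, had 21.7 CPM in the library labelled KO and 27.2 CPM in the WT library of group 2, and 20.3 CPM in the library labelled KO and 24.5 CPM in the WT library of group 3. Tm7sf2, a sterol reductase, had 5.89 CPM in the library labelled KO and 10.1 CPM in the WT library of group 2, and 5.67 CPM in the library labelled KO and 8.22 CPM in the WT library of group 3. Dhcr7, which makes cholesterol in the last step of one branch, had 59.9 CPM in the library labelled KO and 70.0 CPM in the WT library of group 2, and 54.2 CPM in the library labelled KO and 63.5 CPM in the WT library of group 3. In all 3 genes both libraries labelled KO lay below both WT libraries, as in 19.7% of all genes tested. None of the 3 passed the edgeR test (adjusted p 0.657, 0.493 and 0.653). Tm7sf2 shares 532 exon bases with Vps51 on the same strand, so part of its reads may belong to that gene.

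Hsd17b7, a reductase in the removal of sterol methyl groups, had 10.8 CPM in the library labelled KO and 11.6 CPM in the WT library of group 2, and 4.83 CPM (46 counts) in the library labelled KO and 7.97 CPM (65 counts) in the WT library of group 3. Its ratio was 0.926 (0.7 to 1.22) in group 2 and 0.606 (0.406 to 0.898) in group 3. Lss, which closes the sterol rings, was likewise lower in the library labelled KO of group 3 (ratio 0.707, 0.515 to 0.969). In group 2 Lss was close to level (ratio 1.08, 0.781 to 1.48). Nsdhl and Sc5d, a dehydrogenase and a desaturase of sterol intermediates, were lower in the library labelled KO of group 2, with ratios of 0.835 (0.704 to 0.99) and 0.813 (0.71 to 0.931). In group 3 their ratios were 1.11 (0.912 to 1.34) and 1.01 (0.871 to 1.16). Cyp51 and Msmo1, the first demethylating enzymes after lanosterol, had counting intervals that included 1 in both sorted groups. Ebp, a sterol isomerase, went the other way in group 2, at 72.3 CPM in the library labelled KO and 60.8 CPM in the WT library (ratio 1.19, 1.06 to 1.33).

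The 6 tested fatty acid genes had a median fitted log2 fold change of 0.14, and their sum was 512 CPM in the library labelled KO and 466 CPM in the WT library of group 2, and 573 CPM in the library labelled KO and 506 CPM in the WT library of group 3. Scd2 puts the double bond into stearate and palmitate. It had 208 CPM in the library labelled KO and 158 CPM in the WT library of group 2, and 249 CPM in the library labelled KO and 215 CPM in the WT library of group 3. Its ratios were 1.31 (1.23 to 1.40) in group 2 and 1.16 (1.09 to 1.24) in group 3. The WT library of group 3 was above the library labelled KO of group 2, so the genotypes overlapped, and the fitted log2 fold change of 0.30 ± 0.14 did not pass (edgeR, adjusted p = 0.307).

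Fasn, the multifunctional synthase that builds palmitate, stood apart in 1 library. It had 39.1 CPM in the library labelled KO and 24.4 CPM in the WT library of group 2, a ratio of 1.60 (1.36 to 1.89). In group 3 Fasn had 25.3 CPM in the library labelled KO and 28.6 CPM in the WT library, a ratio of 0.886 (0.737 to 1.07). Acaca, the carboxylase that supplies malonyl-CoA, stood apart in the library labelled KO of group 3. Acaca had 8.72 CPM (77 counts) in the library labelled KO and 8.38 CPM (88 counts) in the WT library of group 2. In group 3 it had 2.21 CPM (21 counts) in the library labelled KO and 6.62 CPM (54 counts) in the WT library, a ratio of 0.333 (0.191 to 0.561). Acly, which makes cytosolic acetyl-CoA from citrate, had 127 CPM in the library labelled KO and 137 CPM in the WT library of group 2, and 141 CPM in the library labelled KO and 128 CPM in the WT library of group 3. Elovl5, the elongase of polyunsaturated chains, had 110 CPM in the library labelled KO and 129 CPM in the WT library of group 2, and 135 CPM in the library labelled KO and 119 CPM in the WT library of group 3. Both Acly and Elovl5 thus lay below the WT library in group 2 and above it in group 3.

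Read by pairs of libraries, a ratio of at least 2-fold with a counting interval that excluded 1 was reached by Elovl6 in group 2 (1 of 30 higher, against 6.45% of all genes) and by 0 genes downward (2.44% of all genes). In group 3 it was reached by Elovl6 upward (1 of 30, against 2.17%) and Acaca downward (1 of 30, against 5.60%). Counting intervals alone excluded 1 for 6 genes higher and 11 lower in group 2, against 27.3% and 25.8% of all genes. In group 3 they did so for 5 higher and 10 lower, against 24.5% and 23.7%. In both sorted groups at once, Elovl6, Insig1 and Scd2 were higher (3 of 30, against 1251 of 12490 genes, 10%) and Srebf2, Acat2, Fdft1 and Dhcr7 were lower (4 of 30, against 8.54%). Both libraries labelled KO lay above both WT libraries for 3 genes and below them for 7, against 18.8% and 19.7% of all genes. Counting intervals cover counting error only and say nothing of the spread between mice.

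Markers of dividing and of immature cells moved with the KO label. Of 12 cell division genes, 11 fell in the edgeR test (1.81% of all genes) and 4 in DESeq2, and their sum was 1280 CPM in the library labelled KO and 1990 CPM in the WT library of group 2, and 1150 CPM in the library labelled KO and 1760 CPM in the WT library of group 3. Of 12 genes of immature double-positive thymocytes, 6 fell in edgeR and 4 in DESeq2, with sums of 8130 CPM in the library labelled KO and 9150 CPM in the WT library of group 2, and 5600 CPM in the library labelled KO and 7610 CPM in the WT library of group 3. Of 12 genes of maturing thymocytes, 4 rose in edgeR (2.94% of all genes) and 3 in DESeq2. In neither test did any fall, though 3 were fitted below 0 in edgeR and limma-voom called 1 lower. Without the sorted-group term, the number passing edgeR in those directions was 0 of the cell division genes, 1 of the immature genes and 1 of the maturing genes. With 1 of the 4 libraries left out as well, it was 0, 0 to 2 and 1 to 2. Neutrophil genes summed to 47.8 CPM in the library labelled KO of group 3, against 1.02 to 2.08 CPM in the other 3 libraries, and 2 of 5 tested rose. Macrophage and dendritic cell genes summed to 91.3 CPM in the library labelled KO and 57.7 CPM in the WT library of group 2, and to 106 CPM in the library labelled KO and 68.3 CPM in the WT library of group 3; 8 of 8 tested were fitted above 0 and 1 rose. B cell genes summed to 84.3 CPM in the library labelled KO and 66.5 CPM in the WT library of group 2, and to 65.0 CPM in the library labelled KO and 60.5 CPM in the WT library of group 3; 5 of 6 tested were fitted above 0. Erythroid genes summed to 538 CPM in the library labelled KO and 361 CPM in the WT library of group 2, and to 395 CPM in the library labelled KO and 402 CPM in the WT library of group 3. The part of these differences in the levels of Elovl6, Insig1 and Srebf2 was not tested, and in sorted bulk samples fewer cells of a type and less RNA per cell cannot be told apart.

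From group 2 to group 3, 0 of the 30 genes passed the edgeR test over both genotype labels in either direction, against 2.17% of all genes higher and 1.14% lower in group 3. DESeq2 and limma-voom also called 0. At an unadjusted p under 0.05 there were 4, against 10.8% of all genes: Mvd and Scd2 higher in group 3, Hsd17b7 and Acaca lower. Scd2 was 1.20 times as high in group 3 among libraries labelled KO (1.13 to 1.28) and 1.36 times as high among WT libraries (1.27 to 1.45), with a fitted log2 difference of 0.35 ± 0.14 (edgeR, adjusted p = 0.233). Srebf1 had ratios above 1 in both, 1.26 (1.13 to 1.40) among libraries labelled KO and 1.19 (1.07 to 1.33) among WT libraries. Hsd17b7 had ratios below 1 in both, 0.449 (0.309 to 0.645) among libraries labelled KO and 0.686 (0.5 to 0.934) among WT libraries.

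Several genes had unlike ratios of group 3 over group 2 in the genotypes. Acaca had a group 3 over group 2 ratio of 0.253 (0.148 to 0.414) among libraries labelled KO and 0.79 (0.552 to 1.12) among WT libraries. Stard4 had a ratio of 0.589 (0.461 to 0.749) among libraries labelled KO and 0.94 (0.758 to 1.16) among WT libraries. Fasn had 0.648 (0.547 to 0.766) among libraries labelled KO and 1.17 (0.977 to 1.40) among WT libraries. All 3 were low in the library labelled KO of group 3 next to that of group 2. Mvd was higher in group 3 among WT libraries, with a ratio of 1.97 (1.54 to 2.52), and had 1.18 (0.903 to 1.54) among libraries labelled KO. Hmgcs1 had a ratio of 1.17 (0.995 to 1.38) among libraries labelled KO and 0.694 (0.596 to 0.806) among WT libraries. The difference between these steps was not tested, since each combination holds 1 library.

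**Figure D3:**
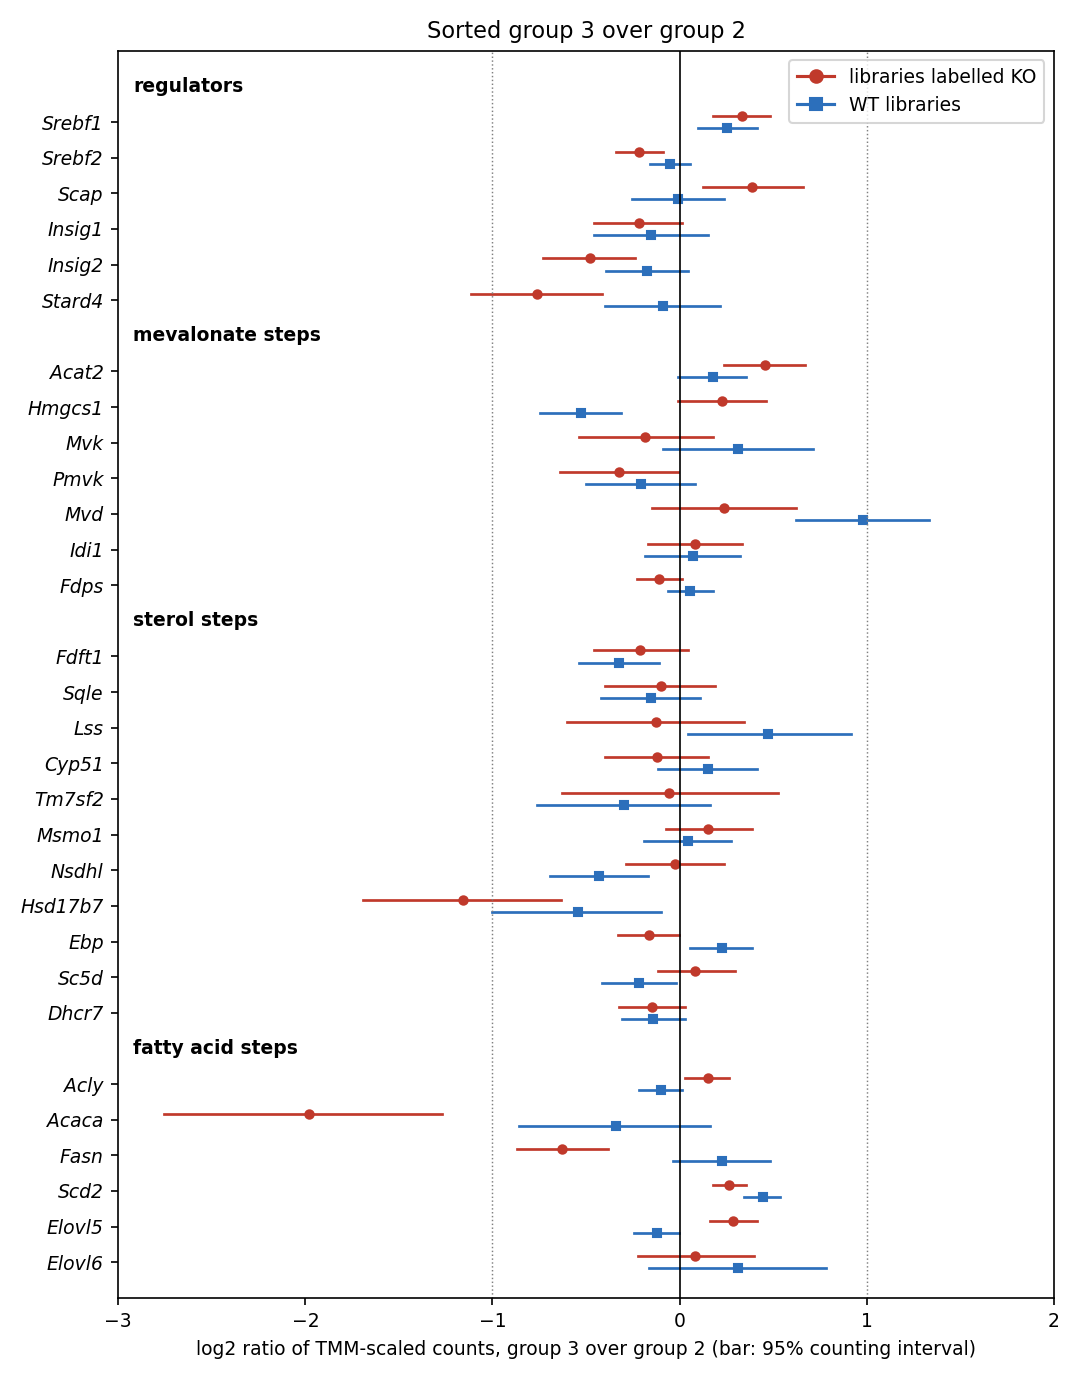
Log2 ratio of group 3 over group 2 (x axis, TMM-scaled counts) for the 30 tested genes (y axis, by role), among libraries labelled KO (circles) and WT libraries (squares), with 95% counting intervals. Acaca and Hsd17b7 are the genes beyond a 2-fold drop among libraries labelled KO, and Mvd lies just under a 2-fold ratio among WT libraries.

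By pairs, 0 genes were at least 2-fold higher in group 3 among libraries labelled KO (1.85% of all genes) and Hsd17b7 and Acaca were at least 2-fold lower (2 of 30, against 5.99%). Among WT libraries 0 were higher (5.22% of all genes) and 0 lower (1.86%). Intervals excluded 1 for 6 genes higher and 8 lower among libraries labelled KO, against 24.4% and 24.2% of all genes. Among WT libraries they did so for 5 higher and 6 lower, against 23.8% and 24.1%.

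Other lipid lists of the same network held at most 1 gene each that passed with the KO label, where 2.94% of all genes tested rose and 1.81% fell. Of 16 tested genes that process or degrade SREBPs and their regulators, 1 rose with the KO label in the edgeR test and 0 fell. The one that rose was Rnf145, a membrane ubiquitin ligase of the endoplasmic reticulum. Rnf145 had 200 CPM in the library labelled KO and 130 CPM in the WT library of group 2, and 235 CPM in the library labelled KO and 127 CPM in the WT library of group 3. Its fitted log2 fold change was 0.75 ± 0.15 (edgeR, adjusted p = 3.8e-05; DESeq2, adjusted p = 0.00279), and the call held in 5 of 11 alternatives. It was lost without a filter, without the sorted-group term, and with a library left out together with that term. Both libraries labelled KO were above both WT libraries, as for Insig1 and Elovl6 and for 18.8% of all genes tested. Of 23 tested genes of the liver X receptors, sterol efflux and trafficking, 1 rose, Mylip, a ubiquitin ligase gene switched on by liver X receptors, and 0 fell. Mylip had 84.5 CPM in the library labelled KO and 60.9 CPM in the WT library of group 2, and 96.4 CPM in the library labelled KO and 64.9 CPM in the WT library of group 3 (edgeR, log2 fold change 0.52 ± 0.16, adjusted p = 0.0364; DESeq2, adjusted p = 0.366), and the call held in 2 of 11 alternatives.

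Of 7 tested further SREBP-2 targets and sterol genes, 0 passed edgeR, DESeq2 or limma-voom in either direction, and 1 had an unadjusted p under 0.05. Tmem97, a sterol-binding membrane protein, had a log2 fold change of 0.27. Of 16 isoprenoid branch genes and 23 tested further fatty acid synthesis genes, 0 passed edgeR, DESeq2 or limma-voom. At an unadjusted p under 0.05 there were 0 of the isoprenoid genes, and 1 higher and 1 lower of the fatty acid genes. Elovl1, an elongase of very long chains, was at 63.9 CPM in the library labelled KO and 38.6 CPM in the WT library of group 2, and 56.7 CPM in the library labelled KO and 44.4 CPM in the WT library of group 3 (edgeR, log2 fold change 0.54 ± 0.18, adjusted p = 0.0532). Of 22 tested fatty acid oxidation genes, Acadl, the long-chain acyl-CoA dehydrogenase, rose and 0 fell. Acadl had 82.1 CPM in the library labelled KO and 35.5 CPM in the WT library of group 2, and 91.6 CPM in the library labelled KO and 28.1 CPM in the WT library of group 3 (edgeR, log2 fold change 1.44 ± 0.18, adjusted p = 4.57e-13), and the call held in 10 of 11 alternatives, all but the one without a filter.

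**Figure D4:**
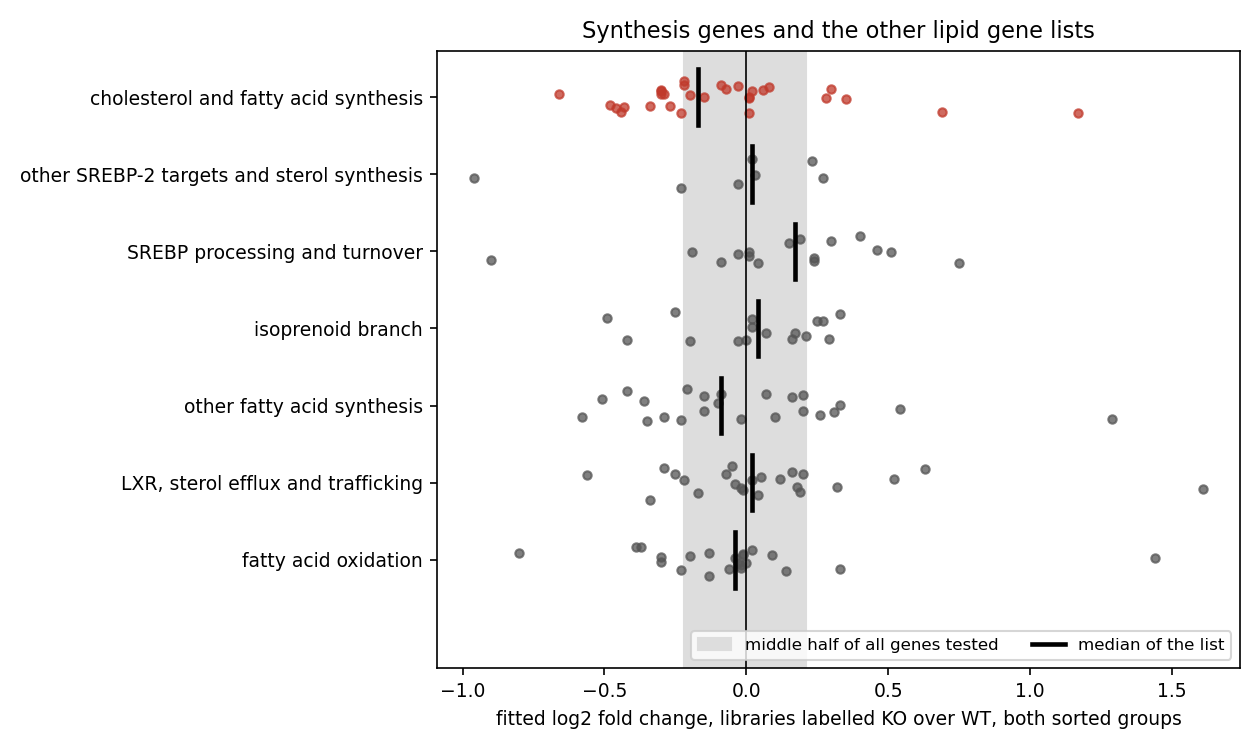
Fitted log2 fold change of the libraries labelled KO over WT (x axis) for each tested gene of the synthesis genes and 6 other lipid lists (y axis), with list medians as black bars and the range from the lower to the upper quartile of all genes tested, -0.22 to 0.21, in grey. The synthesis genes have a median of -0.17 and run from -0.66 to 1.17, with Elovl6 and Insig1 at the right end.

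The median fitted log2 fold change was -0.17 for the 30 synthesis genes, and 19 of them (63.3%) were below 0, against 49.6% of all genes tested. Medians of the other lists were 0.02 for the further SREBP-2 targets, 0.17 for SREBP processing, 0.04 for the isoprenoid branch, -0.09 for further fatty acid synthesis, 0.02 for liver X receptor and efflux genes and -0.04 for oxidation. In the same order, 42.9%, 25%, 37.5%, 56.5%, 47.8% and 77.3% of their tested genes were fitted below 0. Within the synthesis genes the regulators had the lowest median, -0.26, and the fatty acid steps the highest, 0.14.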

How the data were processed

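The authors deposited raw counts per Ensembl gene for 4 libraries and RPKM values for the same genes, both from total RNA of sorted thymocytes. TopHat2 2.0.12 and mm10 are named per the submitters' processing notes. How genes were counted, with which annotation and strand setting, is not given in the sources used here. The deposited RPKM values give a whole gene length with the counts (tolerance 0.01 bp) and served levels per length only. Symbols came from GENCODE M21, matched for 34490 of 35275 genes. Genes with at least 2 CPM in 1 library or more (12490) were scaled by TMM and fitted in edgeR 4.0.16 with sorted group and genotype label as additive terms (1 residual degree of freedom, Benjamini-Hochberg over all tested genes). Pairs of libraries were compared by log2 of CPM plus 0.5 and 95% Clopper-Pearson counting intervals. In counts simulated from these libraries, the test found 83.5% of the genes given a 2-fold change and also called 13 genes that had been given none. The changed genes were drawn from those averaging at least 10 CPM. Their spread was set to the fitted trend that the test itself assumes. The share found therefore does not cover genes of lower level or spread of single genes between mice. The alternatives tried were DESeq2 1.42.0, limma 3.58.1 (voom), other scalings, filters, pseudocounts and folds, no sorted-group term, and each library left out together with the other factor. Members and lists were chosen with earlier results of these data known. Full values were given for genes passing either edgeR test or the 2-fold rule and for 11 members set by role, and other values illustrate a role; of other lists, genes passing the genotype test or those of largest fold were named. Some genes of the other lists are counted but not reported by name here.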

Additional observations from a re-analysis of the deposited data

Results flagged for a closer look

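Elovl5 and Ebp had counting intervals that excluded 1 in opposite directions under the same contrast. The ratio of the library labelled KO over the WT library for Elovl5 was 0.853 in group 2 and 1.13 in group 3. The ratio of group 3 over group 2 for Elovl5 was 1.22 among libraries labelled KO and 0.92 among WT libraries. For Ebp the ratio of group 3 over group 2 was 0.892 among libraries labelled KO and 1.17 among WT libraries. The difference between these ratios was not tested, because each combination of genotype and sorted group holds 1 library. Opposite ratios of this kind were found for 9.5% of all tested genes between genotype labels and for 10.2% between sorted groups.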

How the results depend on the processing

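The number of the 30 genes called higher with the KO label was 2 as reported. It was 1 (Elovl6) with DESeq2's size factors, plain library totals, edgeR's own expression filter or limma-voom. It was 0 without a filter, without the sorted-group term, with DESeq2, and with any library left out (0 to 0). With 3 libraries left, the sorted-group term had to be dropped too, so both changed together, and 11 to 44 of all genes were called higher and 6 to 26 lower. The number called lower was 0 as reported and 1 (Srebf2) with plain library totals. No edgeR, DESeq2 or limma count between sorted groups moved. At a fold of 1.5, group 2 had 3 genes higher and 3 lower with the KO label, and group 3 had 2 higher and 3 lower. Shares of all genes are not given here for this fold or for the other settings of the paired comparisons. Those counts show only how the calls depend on the setting, not whether the members differ from other genes. In group 3 the number higher was 0 with plain library totals or a pseudocount of 2 CPM and 2 without a filter, and the number lower was 0 at a minimum of 10 CPM. For the step to group 3 among libraries labelled KO, the number lower was 1 with a pseudocount of 2 CPM, 4 at a fold of 1.5 and 1 at a minimum of 10 CPM. Among WT libraries it was 1 higher at a fold of 1.5 and 1 lower without a filter. Of 92 recomputed counts, 67 stayed within 1.5 times. The causes were not tested. No paired analysis was possible because each group holds 1 library. With 1 library per combination, differences between mice cannot be told apart from genotype or sorted group, and Uba3 goes against its label.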

Other observations

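Of the other lipid lists, which held 7 to 23 tested genes each, 3 genes passed the edgeR test between the sorted groups. Among all 12490 genes tested, 2.17% were higher and 1.14% lower in group 3, so no difference between lists is read from this count. Gramd1b, which moves cholesterol from the plasma membrane to the endoplasmic reticulum, fell in group 3 in the edgeR test. It had 17.1 CPM in group 3 and 34.8 CPM in group 2 among libraries labelled KO, and 20.0 CPM in group 3 and 34.0 CPM in group 2 among WT libraries (log2 difference -0.89 ± 0.22, adjusted p = 0.00362). Coq2, which attaches the isoprenoid tail of coenzyme Q, was higher in group 3, with 46.2 CPM in group 3 and 30.5 CPM in group 2 among libraries labelled KO, and 49.2 CPM in group 3 and 28.4 CPM in group 2 among WT libraries (edgeR, log2 difference 0.70 ± 0.19, adjusted p = 0.015). Rxrb, a partner receptor of the liver X receptors, was higher in group 3, with 64.3 CPM in group 3 and 53.1 CPM in group 2 among libraries labelled KO, and 76.9 CPM in group 3 and 42.4 CPM in group 2 among WT libraries (edgeR, log2 difference 0.57 ± 0.17, adjusted p = 0.0375). None of these calls held in DESeq2 (adjusted p = 0.232 for Gramd1b, 0.364 for Coq2 and 0.558 for Rxrb). These 3 genes were named after their values were seen.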
